A study of Mus musculus with 2 samples.

Results

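Metallothioneins and zinc transporters were described in mouse intestinal organoids (mIOs), crypt-derived epithelial cultures grown in EGF, Noggin and R-spondin. The set held 10 genes chosen by symbol, namely the metallothionein genes Mt1 and Mt2, the zinc-sensing transcription factor gene Mtf1, the exporters Slc30a1, Slc30a2 and Slc30a10, and the importers Slc39a4, Slc39a5, Slc39a8 and Slc39a14. All 10 were among the 19294 genes of the count table. Gene expression was measured by mRNA-seq of stranded poly(A) libraries in 1 untreated control culture and 1 culture treated with dextran sulfate sodium (DSS), a sulfated polysaccharide used to injure the gut epithelium. Both cultures were labelled day 4 and carried the Lgr5-EGFP-IRES-creERT2 allele, which places EGFP and an inducible Cre at the stem cell gene Lgr5. The DSS dose of the sequenced culture and the animals behind each culture are not given in the sources used here.

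Zinc enters the cytosol through ZIP proteins, encoded by the SLC39 family, and leaves it, to the outside or into vesicles, through ZnT proteins, encoded by the SLC30 family. Metallothioneins are small cysteine-rich proteins that hold zinc and copper in the cytosol. MTF1, the product of Mtf1, binds metal response elements in DNA when zinc is high, and Mt1, Mt2 and Slc30a1 are its classical targets. In the small intestine ZIP4 takes up dietary zinc at the apical surface of enterocytes, and a defect of its human gene causes the zinc deficiency disease acrodermatitis enteropathica.

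Totals were 65493032 counts for the control and 59746968 for DSS. They were scaled with TMM factors, which allow for library size and composition, and levels are given as CPM, counts scaled to a common library size. The log2 ratio of scaled counts, DSS over control, is given with a Clopper-Pearson 95% interval computed exactly from both counts. With 1 library per condition there was no test, no replicate error and no p-value, and every interval reflects sampling of reads alone. A gene was counted as higher or lower when its log2 ratio was at least 1 or at most -1. Of the 17235 genes that reached 10 counts in either library, 19.3% were higher and 20.2% lower by this line. With totals in place of TMM factors these shares were 15.4% and 26.2%, and the median log2 ratio of these genes went from -0.06 to -0.31. The sample labels give the cell type as intestinal stem cells. All 5 stem cell markers were lower in the DSS library, and markers of enterocytes and goblet cells were present in both libraries, so the libraries are described as whole organoids.

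Of the 10 genes, 2 were higher in the DSS library and none was lower, beside 19.3% and 20.2% of all genes, so the share that was higher was close to the background. The zinc importer gene Slc39a4 and the exporter gene Slc30a10 were each more than doubled, whereas the metallothioneins, the most abundant of the set, moved little. The log2 ratio was above 0 for 5 genes and below 0 for 5, with a median of -0.04, and 8272 of the 17235 genes were above 0. Ratios ran from -0.74 for Slc39a8 to 1.21 for Slc30a10. Neither Slc39a4 nor Slc30a10 passed the line when totals replaced the TMM factors, at 0.92 and 0.95.

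**Figure D1:**
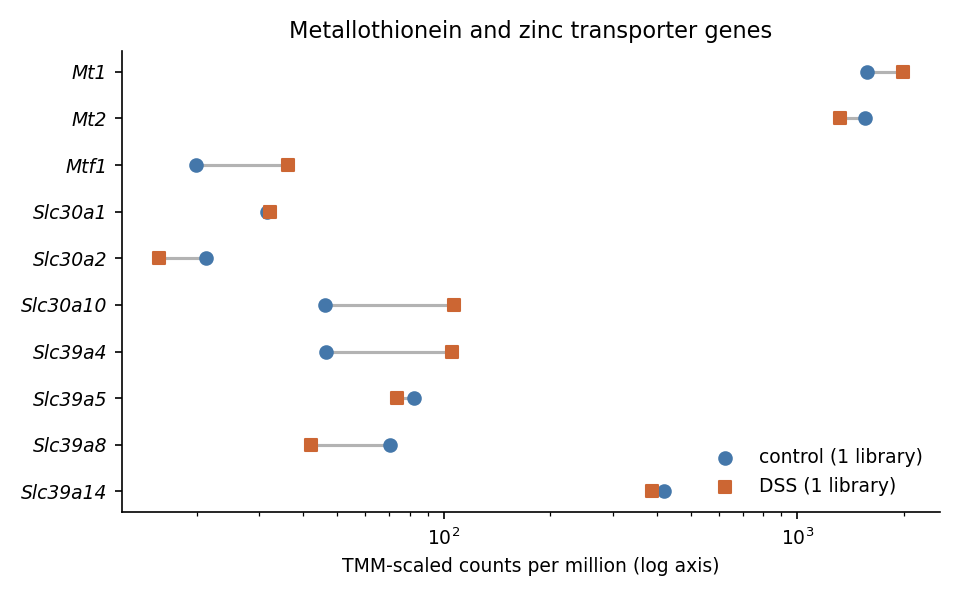
TMM-scaled CPM of the 10 genes on a log axis, with the control library as a circle and the DSS library as a square, 1 library each. Mt1 and Mt2 lie far above the other genes, at 1317 CPM or more in both libraries, and Slc30a10 and Slc39a4 show the widest gaps toward higher values in DSS, from 46.3 to 107 CPM and from 46.6 to 105 CPM.

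Mt1 and Mt2 are neighbours at chr8:94179082-94180327 and chr8:94172664-94173568 on the plus strand of GRCm38, in a cluster of 4 metallothionein genes that spans 43.1 kb. Their coding sequences, taken from the 3-exon GENCODE vM21 transcripts, are shown because the proteins' metal ligands can be read directly from them and because their likeness bears on how reads were split between the genes. The cysteine codons are in capitals.
Mt1: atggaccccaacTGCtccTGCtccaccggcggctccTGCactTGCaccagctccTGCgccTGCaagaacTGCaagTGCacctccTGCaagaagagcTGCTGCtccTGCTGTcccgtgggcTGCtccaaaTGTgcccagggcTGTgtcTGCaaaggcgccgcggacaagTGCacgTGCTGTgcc
Mt2: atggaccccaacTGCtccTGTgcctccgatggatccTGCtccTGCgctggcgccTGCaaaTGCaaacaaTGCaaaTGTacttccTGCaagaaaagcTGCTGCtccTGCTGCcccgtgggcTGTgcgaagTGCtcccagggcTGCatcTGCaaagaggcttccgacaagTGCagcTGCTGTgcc
Each sequence has 61 codons, of which 20, or 32.8%, encode cysteine, and all 20 stand at the same positions in both. The sequences share 145 of 183 bases, or 79.2%. The longest stretch identical between the full 3-exon transcripts was 20 bases. How the authors counted reads that match more than 1 gene is not given in the sources used here.

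Mt1 had 112231 counts, or 1568 CPM, in the control library and 108370 counts, or 1982 CPM, under DSS. This gave a log2 ratio of 0.34 (95% interval 0.33 to 0.35), and 64.4% of all genes had a lower ratio. Mt2 had 110735 counts, or 1547 CPM, in the control and 72002 counts, or 1317 CPM, under DSS. Here the log2 ratio was -0.23 (95% interval -0.25 to -0.22). The neighbours thus differed in sign under TMM scaling, although neither passed the line. With totals both directions held, at 0.08 for Mt1 and -0.49 for Mt2, whereas after removal of the trend with transcript length Mt2 was above 0, at 0.15.

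Summed, Mt1 and Mt2 took 222966 counts of the control and 180372 of the DSS total, which was 0.34% and 0.302% of all counts. The scaled sum had a log2 ratio of 0.08 (0.07 to 0.09), so the pooled metallothionein level was 1.06 times that of the control. With totals the same ratio was -0.17, so the direction of this small difference depended on the scaling. The make-up of the pool differed more than its size. Mt1 contributed 50.3% of the pool in the control library, with an exact binomial 95% interval from 50.1% to 50.5%, and 60.1% in the DSS library, from 59.9% to 60.3%. The count ratio of Mt1 to Mt2 therefore went from 1.01 to 1.51, a change of 0.57 on the log2 scale (Wald 95% interval 0.55 to 0.59). Library scaling cancels in such a ratio, while reads assigned to the wrong neighbour would not. A trend with transcript length does not cancel either, unless both transcripts have the same length. After its removal the log2 ratios were 0.42 for Mt1 and 0.15 for Mt2, a narrower gap than with TMM alone. This step used the longest coding transcripts, of 1085 bases for Mt1 and 511 for Mt2, so the narrowing depends on that Mt1 model. The 3-exon transcripts, of 549 and 511 bases, are close in length, and the step was not run with them.

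Per kilobase of transcript, a scale on which different genes can be compared, Mt2 ranked 9 and Mt1 ranked 42 among 17255 genes of the control library, and they ranked 23 and 32 in the DSS library. These ranks used the longest coding transcript model of each gene, which for Mt1 is an intron-retaining model of 1085 bases. With the 3-exon transcripts of 549 and 511 bases, Mt1 was at 2856 and Mt2 at 3028 CPM per kilobase in the control, and Mt1 was at 3610 and Mt2 at 2577 under DSS. By this length, chosen after the values were seen, the order of the pair was exchanged between the libraries.

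The other metallothionein genes of the cluster were far less abundant. Mt4, best known from stratified squamous epithelium, had 509 counts, or 7.11 CPM, in the control and 1346 counts, or 24.6 CPM, under DSS. Its log2 ratio was 1.79 (1.64 to 1.94). Mt3, best known from brain, had 11 counts in each library, and its interval from -0.96 to 1.74 covered 0. Of the 4 metallothionein genes, Mt4 alone passed the line, while 19.3% of all genes were higher.

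Mtf1 had 1429 counts, or 20.0 CPM, in the control and 1976 counts, or 36.1 CPM, under DSS. On the log2 scale the ratio was 0.86 (0.76 to 0.96), so the DSS level was 1.81 times the control level and stayed under the line. The Mtf1 gene lies on chr4:124802104-124849800 on the plus strand and has 11 exons in its longest coding transcript. The mRNA level of Mtf1 gives no measure of whether its protein was bound to zinc or to DNA.

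A list of 10 MTF1-responsive genes, which includes Mt1, Mt2 and Slc30a1, had 4 genes higher and none lower, beside 19.3% and 20.2% of all genes. Its median log2 ratio was 0.19, beside -0.06 over all genes, with 6 genes above 0 and 4 below. With totals the median was -0.07, and 4 genes were higher and 1 lower. Gclc, the catalytic subunit of the enzyme that starts glutathione synthesis, was at 2.74, with 6028 counts in the control and 30744 under DSS. Slc40a1, the iron exporter ferroportin, was at 1.63. Ndrg1, also induced by hypoxia, was at 1.497, from 977 to 2757 CPM. The remaining higher gene, Pgf, rested on 15 and 28 counts, at 1.29 (0.335 to 2.30). Selenow at -0.99 and Csrp1 at -0.74 were the lowest of the list. Slc39a10, which MTF1 represses when zinc is high, had 271 and 187 counts. Its log2 ratio was -0.15, and the bounds of -0.42 and 0.13 enclosed 0. The list thus holds induced and repressed genes, and its median has no single expected direction.

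ZnT1, encoded by Slc30a1, exports zinc across the plasma membrane and in enterocytes lies at the basolateral side. Slc30a1 had 2257 counts, or 31.5 CPM, in the control and 1765 counts, or 32.3 CPM, under DSS. Its log2 ratio was 0.03 (-0.06 to 0.12), so a difference between the libraries was not detectable at this depth under TMM scaling, while with totals the ratio was -0.22 and after removal of the length trend it was -0.02. The gene lies on chr1:191906767-191913247 on the plus strand.

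Slc30a10 lies on the same chromosome and strand, at chr1:185454848-185468762. Its product ZnT10 exports manganese from liver and gut epithelium, and loss of the human gene causes manganese overload. Slc30a10 had 3311 counts, or 46.3 CPM, in the control library and 5843 counts, or 107 CPM, under DSS. This 2.31-fold difference was a log2 ratio of 1.21 (1.15 to 1.27), and 84.0% of all genes had a lower ratio. The count ratio of Slc30a10 to Slc30a1 went from 1.47 to 3.31, a log2 change of 1.17 (1.07 to 1.28). The exporter genes therefore differed from each other by more than the sampling of reads, whichever scaling was used.

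The 250 bases before the RefSeq start are shown for 4 genes, the pairs Mt1 with Mt2 and Slc30a1 with Slc30a10. They are on the plus strand of GRCm38.p6, at chr8:94178839-94179088 for Mt1, chr8:94172368-94172617 for Mt2, chr1:191906531-191906780 for Slc30a1 and chr1:185454598-185454847 for Slc30a10. Capitals mark the core of the metal response element, searched as TGCACNC or TGCGCNC on both strands.
Mt1: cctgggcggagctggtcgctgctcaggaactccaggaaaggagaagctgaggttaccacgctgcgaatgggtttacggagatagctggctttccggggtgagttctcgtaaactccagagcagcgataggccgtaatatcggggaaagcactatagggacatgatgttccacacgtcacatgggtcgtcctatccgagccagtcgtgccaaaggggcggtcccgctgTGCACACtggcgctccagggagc
Mt2: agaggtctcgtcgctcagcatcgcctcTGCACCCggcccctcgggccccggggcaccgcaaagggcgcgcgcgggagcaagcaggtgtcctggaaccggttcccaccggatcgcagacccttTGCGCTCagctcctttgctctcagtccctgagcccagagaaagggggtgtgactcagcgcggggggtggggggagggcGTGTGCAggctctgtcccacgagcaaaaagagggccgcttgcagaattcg
Slc30a1: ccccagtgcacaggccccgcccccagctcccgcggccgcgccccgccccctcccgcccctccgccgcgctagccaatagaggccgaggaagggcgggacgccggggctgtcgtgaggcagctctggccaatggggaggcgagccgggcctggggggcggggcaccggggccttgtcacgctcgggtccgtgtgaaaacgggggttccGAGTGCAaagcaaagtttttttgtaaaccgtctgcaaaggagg
Slc30a10: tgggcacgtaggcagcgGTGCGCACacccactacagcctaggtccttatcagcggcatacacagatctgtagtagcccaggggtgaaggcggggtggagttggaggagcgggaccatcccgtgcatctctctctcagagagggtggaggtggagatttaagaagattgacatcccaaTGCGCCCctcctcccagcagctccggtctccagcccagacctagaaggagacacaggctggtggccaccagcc
The Mt1 window held 1 match, the Mt2 window 3, the Slc30a1 window 1 and the Slc30a10 window 3, of which 2 overlap on opposite strands. Of 32851 promoter windows of this length, 21.4% held at least 1 match and 5.17% at least 2, and the shares were 28.2% and 7.59% for the 16178 windows of genes in the count table. Of the 10 genes, 8 were matched to RefSeq windows, and for 7 of these, or 87.5%, a window held a match, beside 32.3% of the 12704 genes of the count table that had a window. The set was chosen for its role in zinc handling and includes known targets of MTF1. The annotated transcripts of Mt1 and Mt2 reach further upstream than the letters TATAAA, which first occur at base 129 of the 3-exon Mt1 transcript and at base 90 of that of Mt2, so the windows end before that point. The bases next to these letters were therefore not searched. The counts of 1 and 3 matches do not describe that stretch or rank Mt1 against Mt2, and the 87.5% rests on the same windows. The part of the matches in the ratios of any of the 4 genes was not tested.

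Slc30a2 encodes ZnT2, which loads zinc into secretory vesicles and in the gut is known from the granules of Paneth cells. It had 1522 counts, or 21.3 CPM, in the control library and 855 counts, or 15.6 CPM, under DSS, which gave a log2 ratio of -0.44 (-0.57 to -0.32). All 7 Paneth cell markers had log2 ratios below 0, with a median of -1.06, and their summed level went from 1073 to 335 CPM. The part of the Paneth cell markers in the Slc30a2 ratio was not tested. In these bulk libraries, fewer cells of a type and less RNA per cell cannot be told apart.

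Over the SLC30 family, 9 of 10 genes were in the table, Slc30a8 being the exception. Of these, 1 gene was higher, Slc30a10, and 1 was lower, beside 19.3% and 20.2% of all genes. The family had 7 genes above 0 and a median of 0.03, which became -0.22 with totals, when Slc30a10 was inside the line. The lower gene was Slc30a3, known for loading zinc into synaptic vesicles, which went from 73 to 10 counts. Its log2 ratio was -2.48, with wide bounds of -3.60 and -1.52. Slc30a4 was at 0.56, from 83.1 to 123 CPM. Slc30a5 and Slc30a7, whose products supply zinc to enzymes of the secretory pathway, were at 0.03 and 0.02, and both intervals covered 0. Slc30a6, at 0.30, and Slc30a9, at 0.27, completed the family.

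**Figure D2:**
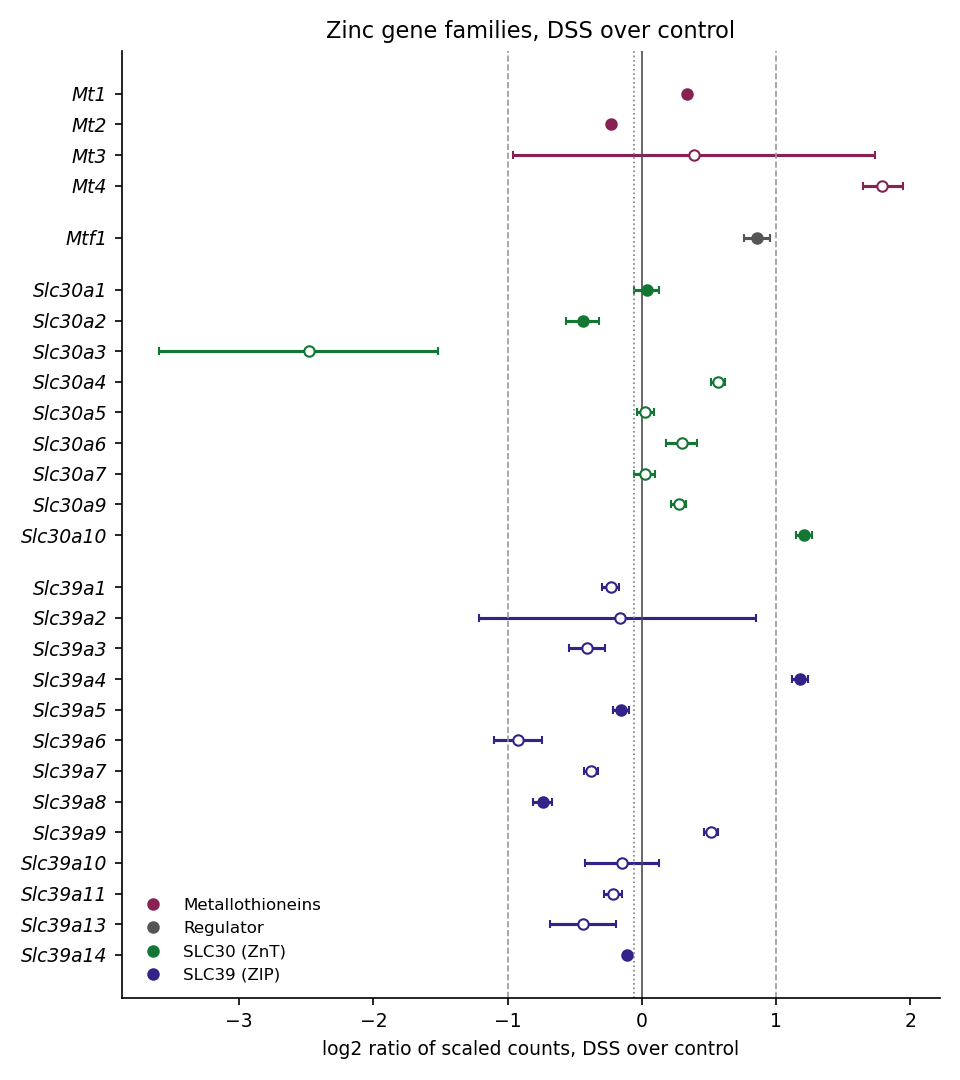
Log2 ratio of TMM-scaled counts, DSS over control, for each metallothionein gene, Mtf1 and the listed SLC30 and SLC39 genes, with bars for the 95% interval from read sampling. Filled points are the 10 genes of the set, dashed lines stand at 1 and -1, and the dotted line is the median of all genes, -0.06. Slc30a10 at 1.21, Slc39a4 at 1.18 and Mt4 at 1.79 lie right of the upper line, and Slc30a3 at -2.48 lies left of the lower line.

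Slc39a4, the gene of the apical zinc importer ZIP4, lies on chr15:76612383-76617384 on the minus strand. It had 3334 counts, or 46.6 CPM, in the control library and 5756 counts, or 105 CPM, under DSS, a 2.26-fold difference. On the log2 scale this was 1.18 (1.12 to 1.24). Slc39a5 encodes ZIP5, which is found at the basolateral side of enterocytes. It had 5894 counts, or 82.4 CPM, in the control and 4037 counts, or 73.8 CPM, under DSS. Its log2 ratio was -0.16 (-0.22 to -0.10). The count ratio of Slc39a4 to Slc39a5 went from 0.566 to 1.43, a log2 change of 1.33 (1.25 to 1.42), which does not depend on library scaling. Per kilobase of transcript, Slc39a4 was below Slc39a5 in the control, at 16.9 against 40.7 CPM per kilobase, and both were similar under DSS, at 38.3 and 36.5. With the median transcript length Slc39a5 was above Slc39a4 in both libraries, at 55.6 against 43.7 CPM per kilobase under DSS.

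Markers of several differentiated cell types were higher along with Slc39a4 and Slc30a10. All 10 enterocyte markers were higher in the DSS library, with log2 ratios from 1.24 to 5.27 and a median of 2.79, and their summed level went from 4252 to 30688 CPM, a 7.22-fold difference. Slc39a4 and Slc30a10, at 1.18 and 1.21, were close to the lowest of these, Anpep at 1.24 and Vil1 at 1.25. Slc39a5, at -0.16, lay below all 10. All 7 goblet cell markers were also higher, with a median of 3.77 and a 13.5-fold difference in their sum. So were all 6 enteroendocrine markers, with a median of 2.45 and a 5.17-fold difference. With totals 8 enterocyte, 7 goblet cell and 5 enteroendocrine markers were higher. By RT-PCR of DSS-treated mIOs, the paper reports decreased Lgr5 and Lyz but similar levels of Vil1, Muc2 and Chga. In these libraries Lgr5 was at -3.78, Lyz1 at -1.06, Vil1 at 1.25, Muc2 at 4.98 and Chga at 2.60. RT-PCR and the libraries thus differ for Vil1, Muc2 and Chga. The RT-PCR gave relative expression, with Gapdh among the listed primers, whereas the libraries were scaled over all genes. Whether both used the same cultures, dose and day is not given in the sources used here. The part of any of these markers in the ratios of the zinc genes was not tested. Of 7 mesenchymal markers 3 were in the table, and their summed level went from 5.67 to 34.5 CPM. This sum was mostly Vim, the gene of the filament protein vimentin, at a log2 ratio of 2.70, while the collagen gene Col1a1 had 29 and 24 counts. Of 6 immune markers 4 were in the table, with a summed level of 8.98 and 13.2 CPM, and the defining leukocyte and T cell genes Ptprc and Cd3e were not listed. The part of these markers was not tested either.

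Slc39a8 and Slc39a14 encode the close relatives ZIP8 and ZIP14, which carry manganese and iron as well as zinc. Slc39a8 had 5051 counts, or 70.6 CPM, in the control library and 2310 counts, or 42.3 CPM, under DSS. Its log2 ratio of -0.74 (-0.81 to -0.67) was the lowest of the 10 genes, and 26.2% of all genes had a lower one. With totals in place of TMM factors it was at -0.996, still inside the line. Slc39a14 was the most abundant transporter gene of the set, with 29969 counts, or 419 CPM, in the control and 21214 counts, or 388 CPM, under DSS. Its log2 ratio was -0.11 (-0.14 to -0.08). The count ratio of Slc39a14 to Slc39a8 went from 5.93 to 9.18, a log2 change of 0.63 (0.56 to 0.71). Slc39a8 lies on chr3:135825279-135888572 on the plus strand and Slc39a14 on chr14:70303469-70351425 on the minus strand.

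**Figure D3:**
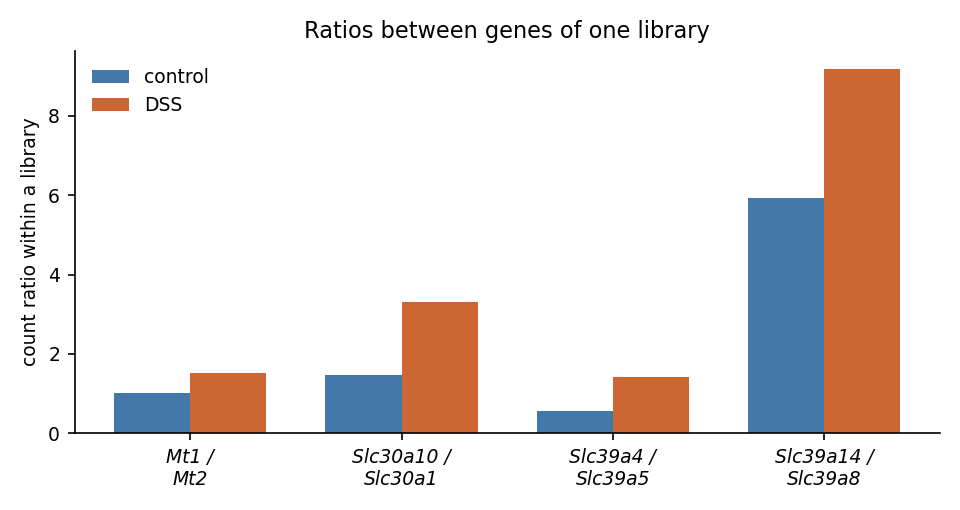
Ratio of the read counts of 2 genes within the same library, control and DSS side by side, for 4 pairs of related genes. The height of a bar also depends on the lengths of both transcripts, so only the change between the bars of a pair is compared. Each ratio was greater in the DSS library, from 1.01 to 1.51 for Mt1 over Mt2, 1.47 to 3.31 for Slc30a10 over Slc30a1, 0.566 to 1.43 for Slc39a4 over Slc39a5 and 5.93 to 9.18 for Slc39a14 over Slc39a8.

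Over the SLC39 family, 13 of 14 genes were in the table, Slc39a12 being the exception. Slc39a4 was the only one past the line, beside 19.3% of all genes higher and 20.2% lower. Of the 13 genes, 11 had log2 ratios below 0, with a median of -0.21 beside -0.06 over all genes. Slc39a6, at -0.92, and Slc39a8, at -0.74, were the lowest. Slc39a9, at 0.52, was the only other gene above 0. With totals Slc39a4 was inside the line, at 0.92, and Slc39a6 was past it, at -1.18, so that no gene was higher and 1 was lower. Slc39a7, whose product releases zinc from the endoplasmic reticulum, was at -0.38, from 103 to 78.9 CPM. Slc39a1, Slc39a3, Slc39a11 and Slc39a13 ran from -0.44 to -0.21, and their intervals lay below 0. Slc39a2 had 22 and 15 counts, and its interval covered 0. Summed over each family, the scaled counts had a log2 ratio of 0.38 for the SLC30 genes, from 0.35 to 0.40, and of -0.05 for the SLC39 genes, from -0.07 to -0.03. The SLC39 value was above 0, at 0.04, with upper quartile factors. With totals the sums were at 0.12 for the SLC30 genes and -0.305 for the SLC39 genes. Abundant genes weigh most in such a sum, and the median of the SLC30 family was 0.03.

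Per kilobase, Slc39a14 made up 29.6% of the control SLC39 sum and 28.7% of the DSS sum. In the SLC30 family Slc30a5 led, with 26.6% and 21.8%. These shares used the longest coding transcripts. By this length Slc30a4 was close to Slc30a5 under DSS, at 22.5 against 23.1. With the median transcript length Slc30a4 was above it there, at 28.5 against 24.9. Ordered per kilobase over the longest coding transcripts, the transporters of the set in the control library were Slc39a14 at 85.0, Slc39a5 at 40.7, Slc39a8 at 20.0, Slc39a4 at 16.9, Slc30a10 at 7.93, Slc30a2 at 6.74 and Slc30a1 at 6.01, followed by Mtf1 at 2.62. In the DSS library Slc39a4 and Slc30a10 each stood 1 or 2 places higher, at 38.3 and 18.3, and Slc39a8 stood below both, at 12.0. The level of Slc39a14, and with it its share of the SLC39 sum, depended most on the transcript model. With the median transcript length the level was 674 in the control and 625 under DSS, still the highest of the transporters. Neighbouring places in these orders cannot be separated from the spread between cultures, which was not measured.

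Other metals were examined with lists of their handling genes, beside 19.3% of all genes higher and 20.2% lower. Of 8 manganese genes, 2 were higher, Slc30a10 and Arg2, the gene of the manganese-dependent mitochondrial arginase. Arg2 was at 3.003, from 2348 to 14382 counts. None was lower, and the median was 0.22, or -0.04 with totals, when Arg2 alone was higher. Among 12 measured copper genes none was higher, 7 were above 0 and the median was 0.36. The copper exporter Atp7a was at 0.90 and the copper chaperone Atox1 at 0.89. Steap3, a metalloreductase of iron and copper, was the 1 lower copper gene, at -4.32, from 655 to 25 counts.

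Genes that share inducers with metallothioneins were also counted. Of all genes, 19.3% were higher and 20.2% lower, or 15.4% and 26.2% with totals. In the list of metal and oxidative stress genes, 11 of 12 were above 0, 6 were higher and 1 was lower, with a median of 0.96. Besides Gclc, the stress factor gene Atf3 was at 2.68 and the cystine transporter gene Slc7a11 at 2.10, while Hsph1 was at -1.64. Hsph1 is a heat shock gene, and of the other heat shock genes of the list Hspa1a was at 1.17, Hspa1b at 1.01 and Dnajb1 at 0.02. With totals 4 genes of the list were higher and 1 was lower. Of 8 glucocorticoid-responsive genes, 3 were higher, Dusp1 at 3.27, Sgk1 at 3.05 and Tsc22d3 at 1.67, and the median was 0.84. The list of IL-6 and STAT3-responsive genes, of which 6 of 10 were measured, had 1 higher and 1 lower gene, close to the shares of all genes. These were Socs3 at 1.07 and Reg3b at -1.41, with Junb at 0.92 and a median of 0.59 over the list. With totals none was higher and 2 were lower. Mt1 at 0.34 and Mt2 at -0.23 lay below the medians of these 3 lists. The part of these inducers in the metallothionein ratios was not tested. Of 11 zinc-dependent enzymes of the epithelium, 9 were higher, beside 19.3% of all genes, with a median of 2.29, among them intestinal alkaline phosphatase Alpi at 3.94, the brush border protease Mep1b at 3.59 and Ace at 3.47. The carbonic anhydrase gene Car4, at 3.78, rested on 4 and 42 counts. With totals 8 of the 11 enzymes were higher. The list is made up largely of brush border enzymes, and Alpi and Anpep are also among the enterocyte markers, all 10 of which were higher with a median of 2.79. The part of those markers in the enzyme list was not tested. With TMM factors, the genes of the list that were not higher were Sord at 0.39 and Mmp7, a protease of Paneth cells, at -1.19.

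**Figure D4:**
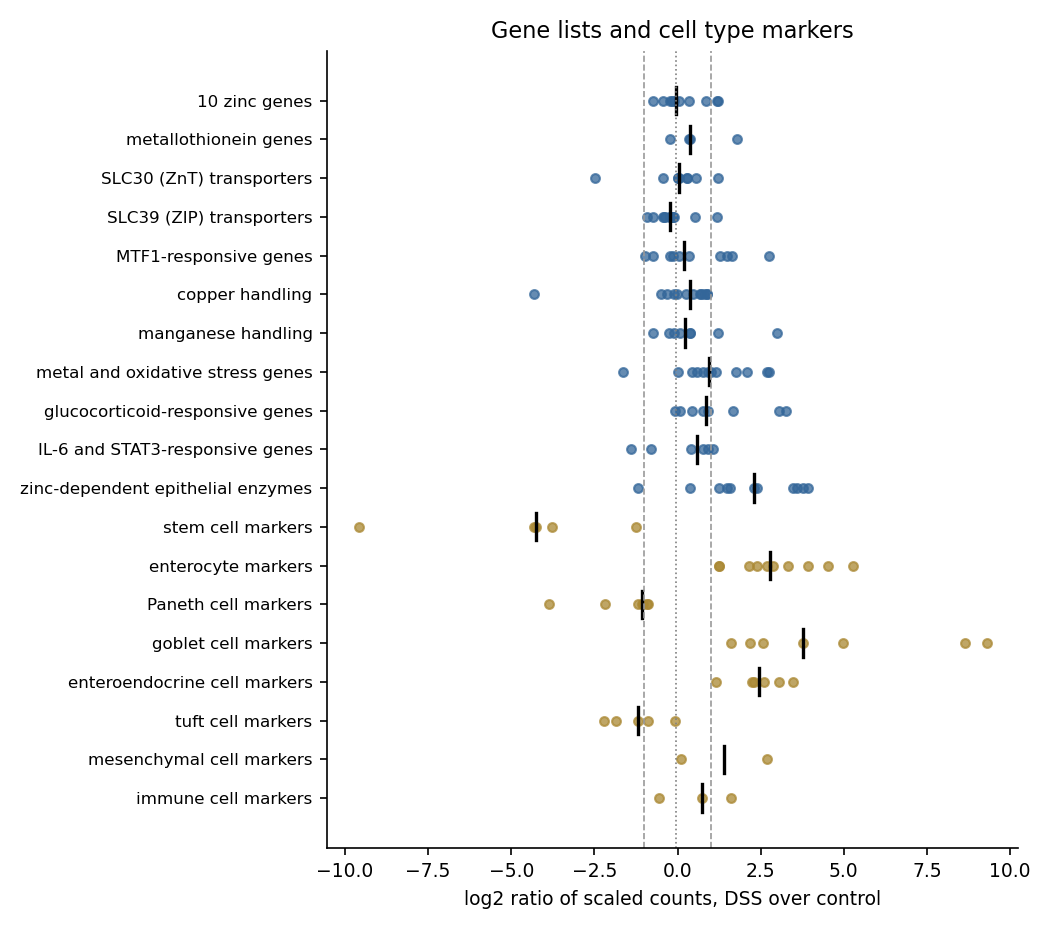
Log2 ratio, DSS over control, of each gene that reached 10 counts in either library, in 11 gene lists (blue) and 8 cell type marker lists (brown), 1 point per gene, with the list median as a black bar. Dashed lines stand at 1 and -1 and the dotted line at the median of all genes. The 10 zinc genes lie between -0.74 and 1.21, while enterocyte markers have a median of 2.79 and stem cell markers of -4.26.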

How the data were processed

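The comparison used mRNA-seq of 1 untreated and 1 DSS-treated mIO culture. The values deposited by the authors are unnormalised read counts for each gene, listed by NCBI gene identifier and symbol. The files of the single samples, named as FPKM, hold the same counts for all 19294 genes. HISAT2 and StringTie are named in the submitters' processing notes. The genome build, the counting rules and the design behind the fold changes are not given in the sources used here. No listed gene is at 0 in either library, so a gene seen in a single library could not be examined.

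Counts were scaled with TMM in edgeR 4.0.16 (R 4.3.3), with factors of 1.09 for the control and 0.915 for the DSS library, and the table of both libraries was scaled as a whole. With 1 library per group, no test was made. Intervals of a ratio between genes are Wald intervals on the log scale. Transcript lengths came from GENCODE vM21 (GRCm38), matched by symbol or gene identifier for 92.1% of the genes that reached 10 counts in either library, and promoter windows from RefSeq (GRCm38.p6). The interval computation was tested on simulated data. The genes, lists, markers and gene pairs were chosen with earlier results of these data known. In the lists outside the metallothionein, SLC30 and SLC39 families, the 3 genes farthest from 0 on the log2 scale were named where they reached 50 counts, and further genes were named after their values were seen. Alternatives were total counts, DESeq2 1.42.0 size factors, upper quartile factors, the deeper library thinned to the total of the other, a prior count of 2, removal of the trend with transcript length (lowess, span 0.3, statsmodels 0.14.6), other count minimums, a line at 2 and other transcript lengths. Python 3.11.15, scipy 1.17.1 and matplotlib 3.10.9 were used.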

Additional observations from a re-analysis of the deposited data

How the results depend on the processing

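The number of the 10 genes past the line was 2 higher and 0 lower with TMM. It was 0 higher with total counts and 0 higher with a line at 2, and remained 2 higher with upper quartile factors, DESeq2 size factors, thinning, a prior count of 2 and removal of the length trend, while 0 were lower in every one of these settings. The median log2 ratio of the 10 genes was -0.04 with TMM, -0.29 with total counts, 0.052 with upper quartile factors and 0.063 after removal of the length trend. Scaling moves every gene alike, by -0.26 with total counts and 0.09 with upper quartile factors. Ratios near 0 changed sign with these choices, as Slc30a1 did with total counts, at -0.22, and after removal of the length trend, at -0.02, and Mt2 did after removal of the length trend, at 0.15. The order of Mt1 and Mt2 per kilobase depends on the transcript model. The 3-exon lengths, the other scalings of the summed counts and the counts of list genes past the line with totals were chosen after seeing the data. No paired analysis was possible because each group has 1 library, and no replicate could be left out.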
